A study of Rattus norvegicus with 6 samples.

Results

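The enzymes described here build heme, the iron-holding group of hemoglobin, and they were followed in RNA-seq of rat subchondral bone, the bone layer under the joint cartilage. They were chosen by name as Alas1, Alas2, Alad, Uros, Urod, Cpox, Ppox and Fech, which gave 8 genes of 30600 rows with values, each with 1 row of that name. The series set out to compare rats kept at low and at normal temperature, but the labels used here tie none of its 6 libraries, named S10, S12, S13, S20, S21 and S23, to a temperature. All 6 were labelled as subchondral bone from Rattus norvegicus, and no label gives their strain, sex, age or treatment, or says whether each library came from a separate animal. No library was placed in a group, so levels and their spread over the libraries are described and no effect of cold was tested.

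Heme synthesis starts in the mitochondrion, where ALA synthase joins glycine and succinyl-CoA, continues in the cytosol, where porphyrin rings are assembled from the product, and ends in the mitochondrion, where ferrochelatase inserts iron. The entry enzyme comes from separate genes: Alas2 is used by developing red cells, where iron promotes its translation, and Alas1 by all cells, where heme holds it down. Marrow is the main site of red cell formation in adult mammals, and bone samples that include marrow contain erythroid RNA. The 4 globin rows had summed levels of 159651 FPKM in S23 to 437268 FPKM in S10 (fragments per kilobase, a level the authors scaled by gene length and library depth). Bone itself was also present, since Bglap (osteocalcin, a product of osteoblasts) ranged from 255 to 610.0 FPKM. In bulk tissue, fewer cells of a type and less RNA per cell cannot be told apart.

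The start regions of Alas1, Alad and Urod are shown because Alas1 was highest in the library, S23, in which Alad and Urod were lowest, as described below. They are the RefSeq windows of 250 bases before to 20 bases after the annotated start in build GRCr8, all on the minus strand and read 5′ to 3′, at chr8:115768623-115768892 for Alas1, chr5:80987882-80988151 for Alad and chr5:135705361-135705630 for Urod. Capitals mark matches to the motifs searched.
Alas1: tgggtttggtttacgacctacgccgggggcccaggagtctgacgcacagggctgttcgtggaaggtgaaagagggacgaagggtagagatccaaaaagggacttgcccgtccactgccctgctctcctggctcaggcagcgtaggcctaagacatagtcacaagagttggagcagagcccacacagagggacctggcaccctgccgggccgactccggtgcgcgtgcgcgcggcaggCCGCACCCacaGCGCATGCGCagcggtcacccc
Alad: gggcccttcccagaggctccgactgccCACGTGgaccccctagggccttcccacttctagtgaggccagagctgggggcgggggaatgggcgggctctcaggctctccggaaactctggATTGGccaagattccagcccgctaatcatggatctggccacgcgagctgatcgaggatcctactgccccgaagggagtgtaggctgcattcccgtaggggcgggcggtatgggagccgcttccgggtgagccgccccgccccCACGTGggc
Urod: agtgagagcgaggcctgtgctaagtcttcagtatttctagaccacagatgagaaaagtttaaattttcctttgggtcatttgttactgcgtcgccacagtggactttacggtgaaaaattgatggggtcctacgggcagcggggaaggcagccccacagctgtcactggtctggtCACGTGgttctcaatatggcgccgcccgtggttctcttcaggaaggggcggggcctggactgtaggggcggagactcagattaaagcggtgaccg
The motifs, read on both strands, were AGATAA (a site of GATA factors), CATGCGC (the core of the site of NRF1, a regulator of mitochondrial genes), CCNCACCC (a site of KLF factors), CACGTG (an E-box) and CCAAT. The Alas1 window held 2 overlapping NRF1 matches at the annotated start, 1 on each strand, and 1 KLF-type match just upstream. Of 33469 windows of the same length, 3.51% held the NRF1 letters and 14.4% held CCNCACCC. The E-box occurred 2 times in the Alad window and 1 time in that of Urod, against 6.02% of all windows with at least 1, and CCAAT occurred 1 time in that of Alad, against 35.5% of all windows. AGATAA, present in 10.8% of windows, was found in none of these 3 and in 1 place in the Fech window. The windows given for Alas2, Uros and Ppox begin 4800, 955 and 782 bases inside the outermost start of their genes, so they were not read as promoters, and none was matched for Cpox. These matches are letters in a window, and no binding was measured.

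All 8 enzymes were well expressed, and Alas2 exceeded the others by a wide margin. Genes were called expressed at a median of 1 FPKM or more, which 11625 annotated genes reached, and among them the level of Alas2 (ENSRNOG00000000167) ranked 106 and its median was 764.8 FPKM. Urod, Fech, Alad and Cpox formed a middle tier with median levels of 204 FPKM, 174 FPKM, 157 FPKM and 121 FPKM. Alas1 had a median of 58.5 FPKM, Uros 33.4 FPKM and Ppox 27.7 FPKM. The lowest of the 8, Ppox, still lay above 78.3% of expressed genes. Alas2 was above Urod, Cpox above Alas1, and Alas1 above Uros in all 6 libraries without overlap of their ranges. The ranges of the neighbours within the middle tier overlapped, Fech exceeded Alad in 3 of 6 libraries, and Uros exceeded Ppox in 6 of 6 although their ranges overlapped. Counts per gene and library were 1826 to 79595, and 95% exact Poisson intervals reached at most 4.61% to either side of a count, which covers counting error only.

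**Figure D1:**
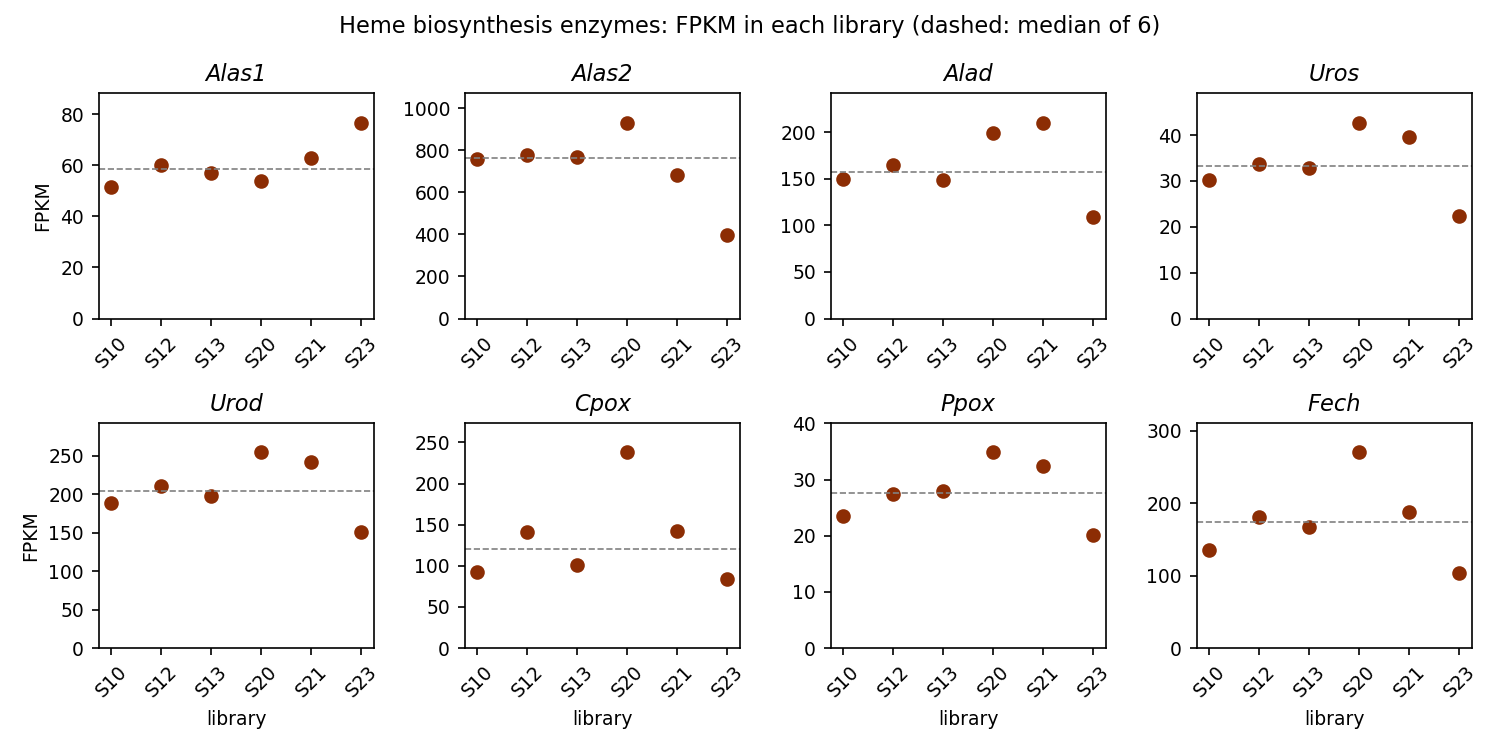
FPKM (y axis, linear, from 0) of each of the 8 enzymes in the 6 libraries (x axis), with 1 point per library and a dashed line at the median. S23 is the lowest point for every enzyme except Alas1, for which it is the highest at 76.7 FPKM.

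Alas2, the erythroid entry enzyme, had 760.0 FPKM in S10, 779.6 FPKM in S12, 769.6 FPKM in S13, 931 FPKM in S20, 684 FPKM in S21 and 396 FPKM in S23. S23 stood apart from the rest, at 0.579 times the next lowest library, while the other 5 lay within 0.44 of each other on the log2(FPKM + 1) scale. Alas1 (ENSRNOG00000056596), the entry enzyme of other cells, had 51.5 FPKM in S10, 60.1 FPKM in S12, 57.0 FPKM in S13, 53.9 FPKM in S20, 63.1 FPKM in S21 and 76.7 FPKM in S23. S23 was thus its highest library and S10 its lowest, and its range of 0.57 on the log2(FPKM + 1) scale was the narrowest of the 8.

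The ratio of Alas2 to Alas1, in which the scaling of a library cancels, was 5.16 in S23, 10.8 in S21, 12.97 in S12, 13.5 in S13, 14.8 in S10 and 17.3 in S20. It thus differed 3.34-fold between S20 and S23, more than either gene alone. Alas2 made up 41.1% (S23) to 53.0% (S10) of the summed FPKM of the 8 enzymes, and Alas1 2.67% (S20) to 7.97% (S23).

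Alad, Uros and Urod, which carry the porphyrin precursors through the cytosol, moved nearly in parallel. Mean absolute differences between the deviations of any pair were 0.04 to 0.07 on the log2(FPKM + 1) scale. This was not particular to the 3, since Ppox differed by 0.05 from Uros, 0.05 from Urod and 0.1 from Alad. Alad (ENSRNOG00000015206), which joins ALA molecules to porphobilinogen, had 150.2 FPKM in S10, 165 FPKM in S12, 149 FPKM in S13, 199.8 FPKM in S20, 210.2 FPKM in S21 and 109 FPKM in S23. Urod (ENSRNOG00000018211), which removes carboxyl groups from the ring, had 189 FPKM in S10, 211 FPKM in S12, 198 FPKM in S13, 254 FPKM in S20, 242 FPKM in S21 and 151 FPKM in S23. S20 and S21 were the highest libraries and S23 the lowest for both, and the same held for Uros (ENSRNOG00000017810), which closes the ring, with 22.4 to 42.7 FPKM and a median of 33.4 FPKM. The ratio of Urod to Uros stayed between 5.96 (S20) and 6.73 (S23). That of Alas2 to Urod was less even, with 2.62 in S23, 2.83 in S21 and 3.66 to 4.03 in the other 4 libraries.

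The closing steps differed among themselves in spread. Cpox (ENSRNOG00000001654), the coproporphyrinogen oxidase, had 92.7 FPKM in S10, 141 FPKM in S12, 101 FPKM in S13, 238 FPKM in S20, 143 FPKM in S21 and 83.5 FPKM in S23, the widest range of the 8 at 1.50 on the log2(FPKM + 1) scale. Fech (ENSRNOG00000018053), the ferrochelatase, had 136 FPKM in S10, 181 FPKM in S12, 166 FPKM in S13, 269.98 FPKM in S20, 188 FPKM in S21 and 103 FPKM in S23. For both, S20 stood above the other libraries and S10 was the next lowest after S23. Ppox (ENSRNOG00000003567), which oxidises protoporphyrinogen between those steps, kept closer to Uros than to Cpox or Fech, with 20.1 to 34.8 FPKM and a ratio to Uros of 0.780 to 0.895.

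**Figure D2:**
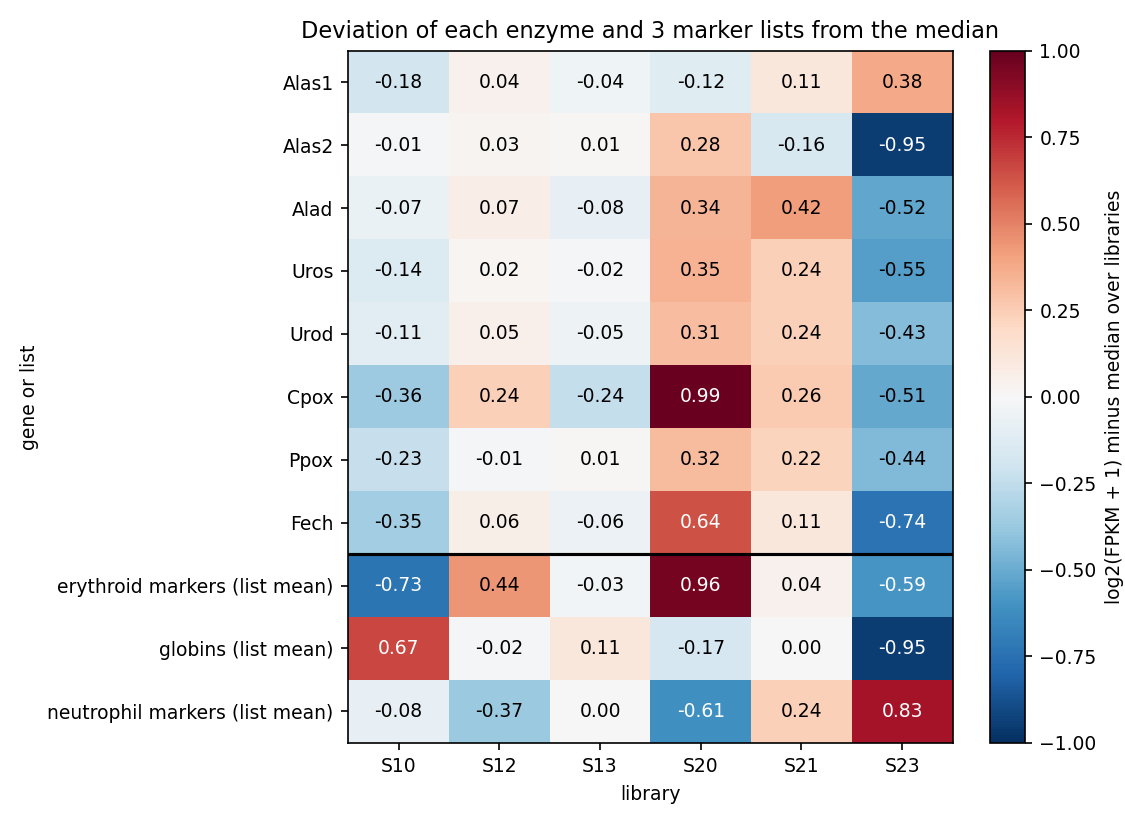
Deviation of log2(FPKM + 1) from the gene's median over the 6 libraries (colour and printed value) for the 8 enzymes, and below the line the mean deviation of the erythroid markers, globins and neutrophil markers; libraries run along the x axis. In S23 all enzymes but Alas1 are negative (-0.43 to -0.95), and Alas1 (0.38) and the neutrophil list (0.83) are positive.

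Set beside the whole table, S23 was the lowest library for 7 of 8 enzymes, against 8.37% of the 11625 expressed genes, and Alas1 was the exception. S20 was the highest library for 6 of 8, against 28.8% of expressed genes, with Alad (S21) and Alas1 (S23) as the exceptions. Both together held for 6 of 8 enzymes and for 3.15% of expressed genes. Alas1 was lowest in S10 and highest in S23, a combination that 13.8% of expressed genes showed. The 8 enzymes had been picked with earlier results of these libraries known, so these counts are descriptions, with no test.

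**Figure D3:**
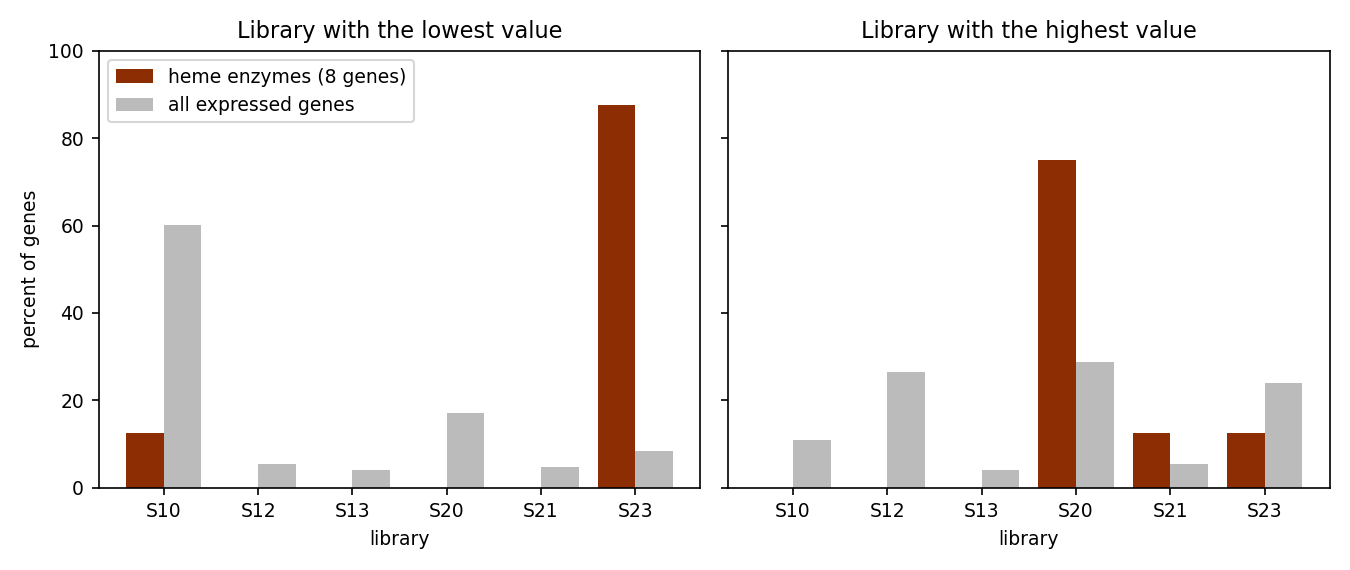
Percent of genes (y axis) whose lowest value (left panel) or highest value (right panel) fell in each library (x axis), for the 8 heme enzymes (dark bars) and for all 11625 expressed genes (grey bars). The dark bar for lowest in S23 stands for 7 of 8 enzymes, beside 8.37% of expressed genes.

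S23 kept its place after length correction and with TMM or median-ratio factors but not with a common FPKM sum, and S20 lost its place under TMM and median-ratio scaling. With TMM factors S23 was the lowest library for 7 of 8 enzymes, against 18.3% of expressed genes, and with median-ratio factors for 7 of 8, against 19.0%. After correction for gene length it was so for 7 of 8, against 19.1%. Rescaling to a common FPKM sum moved the lowest values of Urod, Cpox and Ppox to S10 and left 4 of 8 in S23, against 3.43% of expressed genes. S20 was the highest library for 2 of 8 enzymes under TMM and median-ratio scaling, those 2 being Cpox and Fech, against 23.8% of expressed genes under each. Under TMM scaling Alas2 was highest in S10, and Alad, Uros, Urod and Ppox in S21. Alas1 stayed highest in S23 under all of these scalings, while its lowest value moved to S20 after length correction and with TMM or median-ratio factors. TMM scaling shifted the median of expressed genes by 0.34 (log2) in S10 and by -0.19 in S12, and the common sum shifted it by -0.20 in S10 and 0.12 in S20.

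In the deposited values the spread of the 8 over the libraries was near that of expressed genes as a whole, and this did not hold after length correction or without S10. A range of at least 1 on the log2(FPKM + 1) scale, about a 2-fold difference between the extreme libraries, was reached by Cpox (1.50), Fech (1.38) and Alas2 (1.23), thus 3 of 8 against 36.6% of expressed genes. The median range of the 8 was 0.92 and that of expressed genes 0.83. After length correction 4 of 8 reached it, with Alad (1.02) as the addition, against 19.9% of expressed genes, and without S10 3 of 8 did, against 13.6%. With a common FPKM sum 3 of 8 reached it, against 51.4% of expressed genes, and with a pseudocount of 0.1 3 of 8, against 48.6%. With TMM factors 4 of 8 did, against 29.4%. The count also rested on other libraries: without S20 it was 0 of 8, against 30.1% of expressed genes, and without S23 1 of 8, Cpox, against 32.0%.

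**Figure D4:**
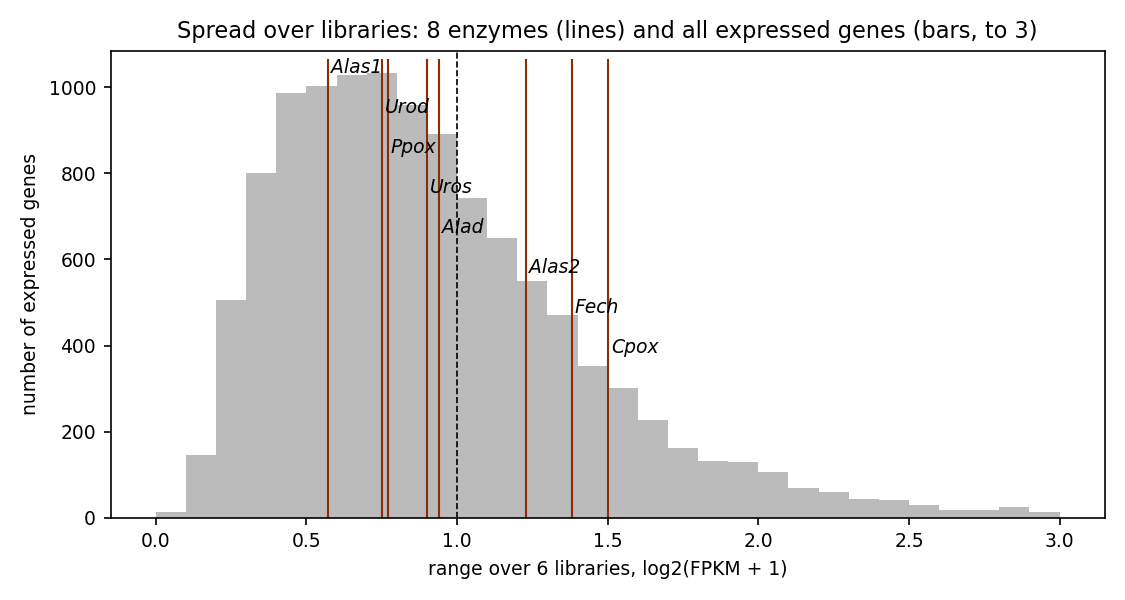
Number of expressed genes (y axis) by range over the 6 libraries on the log2(FPKM + 1) scale (x axis, shown to 3, bars of 0.1), with the ranges of the 8 enzymes as vertical lines and the threshold of 1 dashed. Alas1 (0.57) lies furthest left and Cpox (1.50) furthest right.

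Gene length moved with the difference between S10 and S20. The ratio of S10 to S20 was 0.390 for Cpox and 0.503 for Fech, whose lengths implied by counts and FPKM, 3004 and 3238 bases, were the longest of the 8. The other 6, of 1406 to 2192 bases, had ratios of 0.675 to 0.954. Over expressed genes the median ratio was 0.513 for 5127 genes of at least 2500 bases and 0.950 for 6497 shorter ones. With correction for length the ranges of Cpox and Fech were 1.37 and 1.22, and both stayed lowest in S23 and highest in S20. The part of length in the results on S10 was otherwise not tested.

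**Figure D5:**
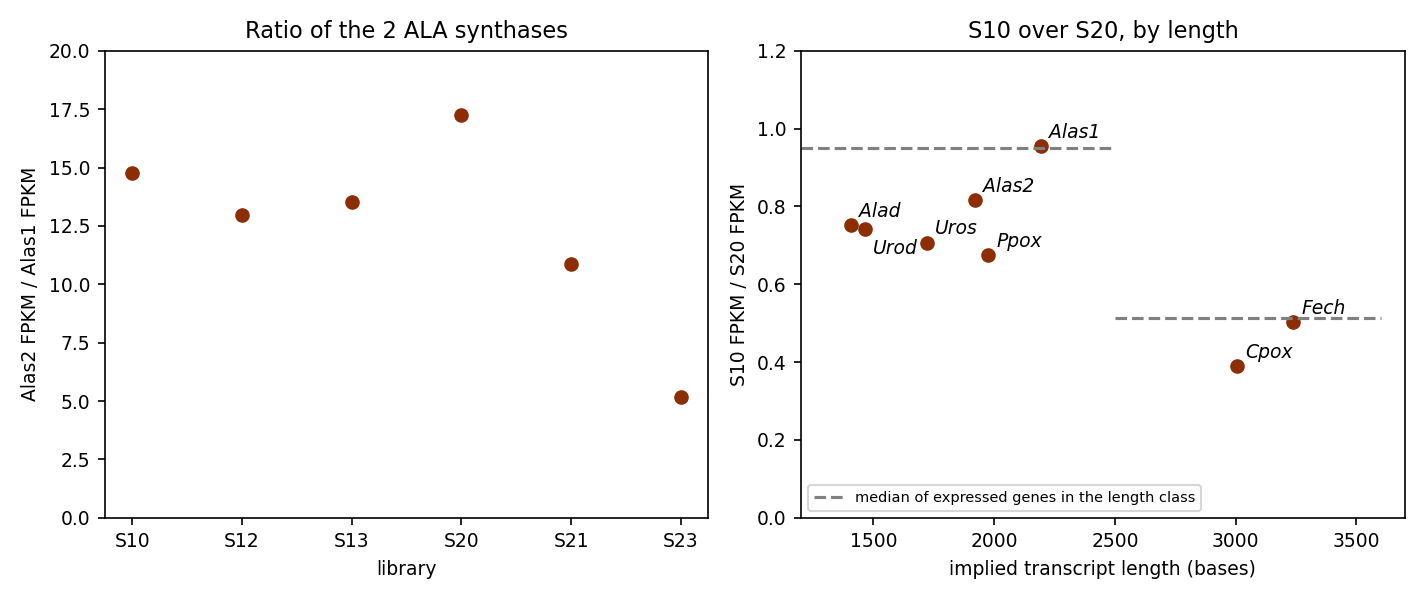
Left, the ratio of Alas2 FPKM to Alas1 FPKM (y axis, from 0) in each library (x axis), 1 point each, highest in S20 (17.3) and lowest in S23 (5.16). Right, the ratio of S10 FPKM to S20 FPKM (y axis) against implied transcript length in bases (x axis) for the 8 enzymes, with dashed lines at the medians of expressed genes under 2500 bases (0.950) and of at least 2500 bases (0.513).

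Globins were also lowest in S23, and neutrophil markers were highest there. The erythroid markers were lowest in S23 by summed level but in S10 by mean deviation. All 4 globin rows were lowest in S23 and highest in S10, against 11.0% of expressed genes highest in S10. They stayed lowest in S23 under every scaling, while 1 of 4 was highest in S20 with a common sum and after length correction. Of 11 erythroid markers, 5 were lowest in S23, against 8.37% of expressed genes, 6 in S10, against 60.1%, and 10 were highest in S20, against 28.8%. Under TMM scaling 7 of the 11 were lowest in S23, against 18.3% of expressed genes, after length correction 8, against 19.1%, and with a common sum 3, against 3.43%. The summed level of these 11 was 1540 FPKM in S23 and 2505 to 3375 FPKM in the other libraries. Ahsp, the hemoglobin-stabilising chaperone, had 784 FPKM in S23 and 1748 FPKM in S10, and the anion exchanger Slc4a1 ranged from 151 FPKM (S10) to 646 FPKM (S20). Ahsp and Bpgm, with the highest medians of the 11 (1215 and 488 FPKM), weighed most in the summed level of S10 and S23. The mean deviation of the list, in which each gene counts alike, was -0.73 in S10 and -0.59 in S23. All 9 expressed neutrophil markers of 10 were highest in S23, against 24.0% of expressed genes. Under TMM scaling 8 of 9 were so, against 16.0%, and under median-ratio scaling 8 of 9, against 15.5%. In S23 the list summed to 76636 FPKM, against 18328 to 45547 FPKM in the other libraries, and Ltf, also listed, was at or near 0. Lowest values in S23 were also found for 3 of 4 expressed adipocyte markers, 3 of 5 B cell markers and 4 of 7 macrophage markers. The same held for 2 of 4 expressed skeletal muscle markers and 2 of 6 proliferation genes, against 8.37% of expressed genes. It held for 1 of 10 osteoblast and osteocyte markers and 0 of 4 expressed osteoclast markers. Of those 4 osteoclast markers 3 were highest in S23, against 24.0% of expressed genes. The part of these cell types in the levels of the enzymes was not tested.

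How the enzymes' ranges changed when a reference list was subtracted depended on the gene-length correction and on S10. When the mean deviation of the erythroid markers was subtracted, the range of Cpox narrowed to 0.58 and that of Fech to 0.76 on the log2 scale, while the other 6 widened to between 1.14 (Ppox) and 2.05 (Alas1). After length correction the same subtraction narrowed 6 of 8 ranges, those of Alas2 (to 1.04), Alad (0.70), Uros (0.75), Urod (0.67), Cpox (0.62) and Fech (0.90), and widened those of Alas1 and Ppox. Without S10 it narrowed 4 of 8, and with TMM or median-ratio factors 3 of 8. The share of all expressed genes that this subtraction would narrow was not computed. These counts therefore do not show whether the narrowing is particular to the enzymes. With the globins subtracted, a reference chosen after the data were seen, the ranges were 1.13 for Alas2 and 1.25 to 2.19 for the others. The references differed most in S10, where the erythroid markers deviated by -0.73 and the globins by 0.67. The ratio of Alas2 to Hba-a1 ran from 0.00353 (S10) to 0.00551 (S20), a 1.56-fold spread that was the narrowest of the 8. The spread over Hba-a1 was 4.23-fold for Alas1, the widest, and 2.07-fold (Alad) to 3.27-fold (Cpox) for the other 6. Reads of Hba-a1, Hba-a2 and Hba-a3, which are close copies, may have been divided among their rows by the counting.

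Around the enzymes stand carriers and iron-sulfur proteins of the mitochondrion. Of 18 genes listed for mitochondrial transport, iron-sulfur assembly and related steps, 7 were lowest in S23, against 8.37% of expressed genes, and 8 highest in S20, against 28.8%. A range of at least 1 was found for 6 of the 18, against 36.6% of expressed genes. Slc25a37 (mitoferrin, which brings iron into the mitochondrion) had 70.7 FPKM in S10, 111 FPKM in S23 and 312 FPKM in S20, and Abcb10, its partner in the inner membrane, ranged from 25.1 FPKM (S10) to 88.7 FPKM (S20). Slc25a38, the glycine carrier that feeds ALA synthase, ranged over 0.42 on the log2(FPKM + 1) scale, with 41.9 to 56.4 FPKM. Tspo, an outer membrane protein abundant in myeloid cells, was highest in S23 at 688 FPKM and lowest in S20 at 244 FPKM.

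Of 9 genes of iron supply and heme sensing, 8 had a range of at least 1, against 36.6% of expressed genes, and 8 were highest in S20, against 28.8%. Of the same 9, 7 were lowest in S10, against 60.1% of expressed genes, and 2 in S23, against 8.37%. Tfrc, the transferrin receptor, had 78.2 FPKM in S10, 104 FPKM in S23 and 313 FPKM in S20. In S10 Eif2ak1, the heme-regulated kinase that slows translation when heme is short, had 32.2 FPKM, in S20 97.9 FPKM, and Bach1, a heme-sensing repressor, 2.40 FPKM in S10 and 17.5 FPKM in S20. All of the 9 but Eif2ak1 (2461 bases) had implied lengths of 3278 to 5229 bases. Expressed genes of at least 2500 bases had a median ratio of S10 to S20 of 0.513. The part of length in the counts for these 9 was not tested. Of 8 genes of heme export, import and breakdown, 7 were expressed, of which 2 were lowest in S23 and 4 in S10, beside the same shares of expressed genes. Hmox1, the inducible heme oxygenase, had its highest level, 199 FPKM, in S12 and its lowest, 68.8 FPKM, in S23. Of 6 erythroid transcription factors 3 were lowest in S23, against 8.37% of expressed genes, and 3 in S10, against 60.1%. Gata1 (16.2 to 34.3 FPKM), Klf1 (84.3 to 186 FPKM) and Tal1 (44.4 to 121 FPKM) were lowest in S23. Zfpm1, a cofactor of GATA1, was lowest in S10 at 15.5 FPKM, with 19.6 FPKM in S23, Lmo2 was lowest in S10 at 44.8 FPKM, with 53.3 FPKM in S23, and Nfe2, also lowest in S10, was highest in S23 at 193 FPKM.

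Likeness between profiles was measured as the mean absolute difference of the log2(FPKM + 1) deviations over the 6 libraries, where 0 means identical profiles, among 11624 other expressed genes. The 3 genes nearest to Alad included Urod (0.065) and Uros (0.066). Uros was nearest to Urod (0.040), and the nearest to Urod were Ska1 (0.036), Uros (0.040) and Klf16 (0.041). Ppox had Pum3 and Klf16 (0.039 each) and Urod (0.045) as its nearest. Thus Alad, Uros, Urod and Ppox each had at least 1 other member among their 3 nearest genes. Alas2, Cpox, Fech and Alas1 had none. Alas2 was nearest to Mkrn1 (0.068), Cited4 and Slc25a39 (0.073 each), Cpox to Tmem184a (0.074) and the carbonic anhydrase gene Car1 (0.099), and Fech to E2f2 (0.071). Alas1 was nearest to Fam3c (0.021), Tcea2 (0.027) and Skap2 (0.032), all lowest in S10 and highest in S23. With 6 libraries, likeness of this kind is a description of these libraries.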

How the data were processed

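RNA-seq of 6 libraries of rat subchondral bone was deposited as 1 table with a count and an FPKM column per library. The labels name an RNeasy kit and a SMARTER mRNA-Seq kit. The deposited counts are raw and whole. The FPKM columns are the authors' own, per the file headers, and summed to 811992 to 1047309 per library. The sources used here name no aligner or counting tool. The submitters' processing notes list the mouse builds GRCm38 and mm10 although the rows carry rat Ensembl IDs; the build of the values is therefore unknown, and they are given without coordinates. Start regions and gene starts are those of RefSeq (GRCr8), matched by symbol for 7 of 8 genes.

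Of 30610 rows, 10 held no values and were left out, and 22050 of the rest were annotated genes. Total counts were 39990624 to 59200981 per library. All libraries were kept unassigned, so no test was made, and values are given per library. Fold differences on the log2(FPKM + 1) scale slightly understate those of low genes. Alternatives were TMM factors (edgeR 4.0.16), median-ratio factors, a common FPKM sum, a pseudocount of 0.1, other FPKM minimums, correction for implied gene length in 20 bins, and leaving out each library. The members and lists were chosen with earlier results of these data known. Genes named are the 8 members, the genes of the pathway, iron, transcription factor and globin lists, up to 4 of the highest genes of other lists, and the 3 genes nearest in profile to each member. Some genes of these lists are not reported here. Python 3.11.15 was used.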

Additional observations from a re-analysis of the deposited data

How the results depend on the processing

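The order of the 8 enzymes by median FPKM was the same under TMM, median-ratio and common-sum scaling and without each library in turn. The 72 medians so recomputed each moved by less than 1 SD over the libraries. For the medians without 1 library this had to hold with 6 values, so only the rescaled medians could have moved further. The number of enzymes lowest in S23 was 7 in the deposited values, against 8.37% of expressed genes. It was 7 under TMM (18.3%), median-ratio scaling (19.0%) and length correction (19.1%), and 4 with a common FPKM sum (3.43%). It was also 7 with a pseudocount of 0.1 and without any 1 of the other libraries. Those settings could not have lowered it, because neither can displace a lowest value in S23. The number highest in S20, 6 in the deposited values, was 2 under TMM and 2 under median-ratio scaling, against 23.8% of expressed genes under each. It was 7 with a common sum, against 34.6%, and 7 after length correction, against 23.9%. Without 1 of the other libraries it could only stay or rise, and it was 6 to 7, against 29.2% (without S13) to 42.8% (without S12). The number with a range of at least 1, 3 in the deposited values, was 3 or 4 under every scaling, pseudocount and length alternative. The share of expressed genes under these ran from 19.9% (length correction) to 51.4% (common FPKM sum). Without 1 library the number was 0 to 3, with 0 reached without S20, against 30.1% of expressed genes, and 1 without S23, against 32.0%. Without S23 the ranges of Alas1 and Alas2 were 0.29 and 0.44, and without S20 those of Cpox and Fech were 0.76 and 0.85. Without S10 3 of 8 reached a range of at least 1, against 13.6% of expressed genes, and after length correction 4 of 8, against 19.9%. With a common FPKM sum 3 of 8 did, against 51.4%, and with a pseudocount of 0.1 3 of 8, against 48.6%. In the deposited values the share of expressed genes was 36.6%. Subtracting the erythroid markers narrowed 2 of 8 ranges in the deposited values, 6 after length correction and 4 without S10. The share of expressed genes narrowed by it was not computed. The median ratio of Alas2 to Alas1, 13.2 from FPKM, was 11.6 from counts, 13.2 with a pseudocount of 0.1 and 12.97 to 13.5 without 1 library. No paired analysis was possible because the labels place no library in a group. The cause of these changes was not tested.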
